A study of Mus musculus with 8 samples.

Results

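The genes described here encode the proteins of the cytosolic ribosome, the particle that translates messenger RNA into protein. They were chosen by symbol from a table of read counts per gene: an Rpl or Rps name with a number (with letter forms such as Rpl13a, Rps4x and Rpl36al), Rplp0, Rplp1, Rplp2 and Rpsa, with a mean of at least 1 CPM over 8 libraries, CPM being a gene's counts scaled to a common library size. Of 24421 symbols counted, 83 matched these names and 78 passed the level, 46 of the large subunit and 32 of the small subunit. The other 5 were Rpl30 (0.854 CPM), Rpl39l (0.143 CPM), Rpl26 (0.0176 CPM), Rpl10l (0.00608 CPM) and Rps4l (0.00463 CPM). Just inside the level were Rpl3l with 1.16 CPM and Rps27 with 1.85 CPM, and just outside it were Rpl30 and Rpl39l.

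RNA was sequenced from mouse bone marrow cells of strain C57BL/6 that carry MLL-AF10, a leukaemia fusion of a histone methyltransferase with AF10, in 2 lines. MATIP cells carry MLL-AF10 with Tip60 flox/flox alleles and Cre-ERT2, a recombinase that is active when 4-hydroxytamoxifen (4-OHT) is present, so that 4-OHT deletes Tip60 (gene Kat5), a histone acetyltransferase. MAflox cells are MLL-AF10 flox cells, and the labels do not say which alleles are floxed or whether Cre-ERT2 is present. Each line received 100 nM 4-OHT or its solvent ethanol (EtOH) for 4 days in methylcellulose (Methocult) with SCF, IL-3 and GM-CSF, at 10 nM each, and each of the 4 groups has 2 libraries. Each line is 1 cell line, and whether the 2 libraries of a group stand for separate cultures is not stated in the labels, so the spread that a p-value is set against may be technical.

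Ribosomal proteins bind the ribosomal RNAs in fixed numbers, so that a cell making ribosomes needs most of them at similar rates, and growing progenitor and leukaemia cells devote much of their transcription to them. Their mRNAs commonly begin with a cytosine followed by a run of pyrimidines (the terminal oligopyrimidine or TOP motif), through which mTOR and the RNA-binding protein Larp1 control their translation. Mutations in several of them cause Diamond-Blackfan anaemia, a failure of red cell production, and loss of a copy of RPS14 is part of the 5q- syndrome.

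The start-site sequences are shown first because the pyrimidine run is the feature most of these genes are known for. RefSeq promoter windows (assembly GRCm38.p6, from 250 bases before to 50 after each start) matched 59 of the 78 genes, with 71 windows. A run of at least 8 C or T on the transcribed-sense strand, within 30 bases of the start on either side, was present in 34 of these 71 windows (47.9%). The same run stood in 22.9% of all 32851 windows in the table and in 21.9% of the 13167 windows of genes tested here. A C at the start itself followed by 4 C or T stood in 18.3% of the windows of the ribosomal protein genes and in 2.51% of all windows. Below are 30 bases around the start, 5′ to 3′, the start being the 16th base, with the longest run of C or T within them in capitals; where RefSeq gives several starts, that with the longest run is shown. The first 8 genes have a run of at least 8 and fell by different amounts in the Tip60-deleted cells, and the last 4 have shorter runs.
Rpl13a, chr7:45128731-45128760, minus strand: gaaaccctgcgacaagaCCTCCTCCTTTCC
Rpl34, chr3:130730323-130730352, minus strand: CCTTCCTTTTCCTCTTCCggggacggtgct
Rps27, chr3:90213634-90213663, minus strand: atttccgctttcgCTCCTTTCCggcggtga
Rps18, chr17:33955651-33955680, minus strand: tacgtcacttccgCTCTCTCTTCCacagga
Rpl27a, chr7:109519180-109519209, plus strand: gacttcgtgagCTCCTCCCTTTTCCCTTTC
Rpl14, chr9:120571502-120571531, plus strand: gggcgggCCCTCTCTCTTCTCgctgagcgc
Rps6, chr4:86857353-86857382, minus strand: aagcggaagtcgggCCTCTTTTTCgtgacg
Rplp2, chr7:141447636-141447665, plus strand: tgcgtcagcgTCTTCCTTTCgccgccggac
Rplp0, chr5:115559452-115559481, plus strand: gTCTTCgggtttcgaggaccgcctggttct
Rps2, chr17:24720048-24720077, plus strand: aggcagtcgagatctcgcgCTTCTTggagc
Rpl36al, chr12:69184053-69184082, minus strand: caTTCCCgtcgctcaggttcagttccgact
Rpl3l, chr17:24727811-24727840, plus strand: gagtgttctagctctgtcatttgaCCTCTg

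Over the whole 300 bases and both strands, CCGGAAG, a core bound by ETS family factors, was found in 35.2% of the windows of these genes, in 8.86% of all windows and in 16.5% of those of tested genes. TATAAA was found in 8.45%, against 13.6% of all windows and 7.49% of those of tested genes. CACGTG, an E-box bound by Myc and Max, was found in 11.3%, against 7.15% and 9.67%, and GGGCGG, a GC box, in 60.6%, against 35.7% and 60.1%. For these 3 motifs the share lay within 2 percentage points of that in tested genes. None of these 4 motifs contains another. A match describes letters and not a bound site.

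The 8 libraries held 41101309 to 57312490 gene counts, and the 20 most abundant genes of each took 7.27% to 17.6% of them. Kat5 had 41.1 and 41.2 CPM in the MATIP EtOH libraries and 8.11 and 8.32 CPM in MATIP 4-OHT, against 43.7 and 41.2 CPM in MAflox EtOH and 57.5 and 62.5 CPM in MAflox 4-OHT. Markers of other myeloid stages moved with 4-OHT in both lines. The summed level of the mature neutrophil list, of which 13 of 13 tested genes rose in each line, was 377.1 to 377.3 CPM in MAflox EtOH and 49340 to 52370 CPM in MAflox 4-OHT, and 809 to 968 CPM in MATIP EtOH and 34330 to 37090 CPM in MATIP 4-OHT. The monocyte and macrophage list rose in 11 of 13 genes in MAflox (1083 to 1120 CPM in EtOH, 7483 to 7547 CPM in 4-OHT) and in 12 of 13 in MATIP (1567 to 1578 CPM, then 38330 to 39160 CPM), with C1qa at 0 in every library. The mitosis list went from 2999 to 3199 CPM down to 2391 to 2506 CPM in MAflox, where 4 of 12 genes fell and 1 rose, and from 2917 to 2964 CPM down to 1208 to 1280 CPM in MATIP, where 11 of 12 fell. The progenitor list went from 1112 to 1126 CPM down to 521.5 to 524.8 CPM in MAflox and from 1020 to 1024 CPM down to 408.9 to 418.7 CPM in MATIP. Of its 8 tested genes 0 rose and 7 fell in MAflox, and 1 rose and 5 fell in MATIP. The primary granule list went from 11880 to 12280 CPM to 10730 to 10840 CPM in MAflox and from 17450 to 17820 CPM to 5224 to 5478 CPM in MATIP. Gene by gene, 4 of its 6 tested genes rose and 2 fell in MAflox (median log2 change 0.38), and 1 rose and 5 fell in MATIP. Among all tested genes 33.1% rose and 32.1% fell in MAflox, and 37.5% rose and 38.6% fell in MATIP. Dendritic cell markers went from 23.8 to 27.2 CPM to 28.5 to 31.4 CPM in MAflox and from 13.2 to 13.4 CPM to 198 to 199.9 CPM in MATIP, and eosinophil markers from 8.30 to 9.54 CPM to 49.2 to 74.3 CPM and from 4.28 to 4.36 CPM to 31.1 to 32.6 CPM. The erythroid and megakaryocyte list, in which the globin genes Hba-a1, Hbb-bs and Hbb-bt were at 0 in all libraries, went from 2.82 CPM to 7.77 to 9.95 CPM in MAflox and from 1.58 to 2.13 CPM to 21.2 to 21.4 CPM in MATIP. The lymphoid list, in which Cd3e and Cd8a were at 0 throughout, went from 77.6 to 78.4 CPM to 137.5 to 140.6 CPM in MAflox and from 51.3 to 58.9 CPM to 19.3 to 19.5 CPM in MATIP. Mast cell and basophil markers stood between 16.8 and 48.4 CPM and stromal markers between 70.5 and 99.6 CPM in all libraries. Single genes of both lists moved. Of 5 tested stromal genes 2 rose and 2 fell in MAflox, and 4 rose and 1 fell in MATIP. Of 5 tested mast cell and basophil genes 4 rose and 0 fell in MAflox, and 2 rose and 1 fell in MATIP. The part of these shifts in the results below was not tested.

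Ribosomal protein genes gave a larger share of all counts after 4-OHT in MAflox cells and a much smaller one after 4-OHT in MATIP cells. In MAflox EtOH the large subunit genes held 4.32% and 4.18% of the counts of the 2 libraries, and in MAflox 4-OHT 4.90% and 4.75%. In MATIP EtOH they held 3.85% and 3.64%, and in MATIP 4-OHT 1.62% and 1.75%. The small subunit genes of MAflox cells held 3.24% and 3.11% without and 3.96% and 3.86% with 4-OHT, and those of MATIP cells 2.85% and 2.69% without and 1.27% and 1.37% with it. The 2 libraries of every group lay closer to each other than to any library of the other treatment in the same line, for both subunits. Both subunits together went from 7.43% ± 0.188 to 8.73% ± 0.182 of counts in MAflox and from 6.52% ± 0.256 to 3.01% ± 0.159 in MATIP (SD, n = 2 each; exact two-sided permutation p = 0.333 in each line, the smallest that 6 arrangements allow).

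**Figure D1:**
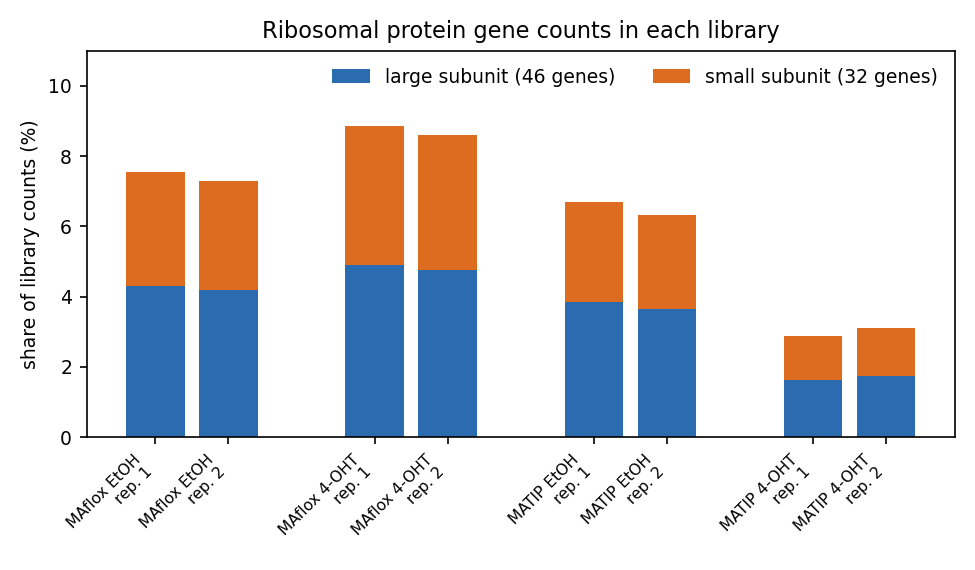
Share of each library's gene counts (%, stacked bars) from 46 large subunit and 32 small subunit genes in the 8 libraries, 2 in each group. The MATIP 4-OHT libraries, at 2.89% and 3.12% for both subunits together, are the lowest, and the MAflox 4-OHT libraries, at 8.86% and 8.60%, the highest.

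The balance between the subunits moved the same way in both lines. Counts of large over small subunit genes stood at 1.33 and 1.35 in MAflox EtOH and at 1.24 and 1.23 in MAflox 4-OHT. In MATIP cells the ratio stood at 1.35 in both EtOH libraries and at 1.28 and 1.27 in 4-OHT. Groups did not overlap within either line, with a change of −0.11 in MAflox and −0.077 in MATIP, and the exact permutation p was again 0.333. Relative to EtOH the large subunit share was 1.13 ± 0.036 times and the small subunit share 1.23 ± 0.043 times as high in MAflox, and 0.450 ± 0.029 and 0.477 ± 0.032 times as high in MATIP (ratio of means ± SD propagated from n = 2 libraries).

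Levels per kilobase of annotated transcript are given for the 3 genes of each subunit with the highest mean over the 4 groups. Values here are TMM-scaled CPM per kilobase, TMM being a scaling of library sizes that sets aside the most changed genes. Rplp1, an acidic protein of the stalk that recruits elongation factors, stood at 3352 with EtOH and 3333 with 4-OHT in MAflox cells, and at 3035 and 2155 in MATIP cells. Rpl41, the shortest ribosomal protein, stood at 2981, 4276, 2548 and 1279 in the same order of groups. Rplp0, the stalk base, stood at 2190, 2824, 2030 and 1459. In the small subunit Rps15, at the head, was at 1919, 2833, 1655 and 772, Rps18, also at the head, at 1819, 3151, 1590 and 554, and Rps12 at 1808, 2560, 1606 and 1116. The leading gene was thus Rplp1 in 3 groups and Rpl41 in MAflox 4-OHT. Below the leading gene the order differed between groups. Rplp1, Rpl32 (3175), Rps18 and Rps15 stood above Rplp0 in MAflox 4-OHT. In MATIP 4-OHT several genes stood above Rps15 and Rps18, among them Rps29 (1097), Rplp2 (1050), Rps2 (1037) and Rpl8 (921).

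In MAflox cells most of these genes rose slightly with 4-OHT, at the scaling used. Genes are said to rise or fall at a Benjamini-Hochberg adjusted p under 0.05 in the quasi-likelihood test of edgeR on 13722 genes. With that rule 68 of the 78 rose and 0 fell, where 33.1% of all tested genes rose and 32.1% fell. Rpl3l is among the 68 but reached 1 CPM only through its 4-OHT groups, and without it 67 of 77 rose. Both treated libraries lay above both controls in 72 of the 78 (41.4% of tested genes) and below them in 1, Rpl29 (39.7%). At an unadjusted p under 0.05 also 0 were lower, and DESeq2 called 0 lower. The median log2 fold change was 0.41 (1.33-fold), against 0.016 over all tested genes, with 41 of 46 large subunit genes up (median 0.38) and 27 of 32 small subunit genes up (median 0.48). With library totals in place of TMM, which lowers the median of all tested genes to −0.15, 51 rose and 4 fell (median 0.24), and 17 of the 68 calls were lost. In bulk RNA, fewer cells of a type and less RNA per cell cannot be told apart, and the total RNA per cell is not known from these counts.

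Of the large subunit, Rpl17, which lines the polypeptide exit tunnel, had 662 and 660 CPM in MAflox EtOH and 1254 and 1227 CPM in 4-OHT, a log2 change of 0.91 ± 0.06 (SE; edgeR adjusted p = 6.54e-11). Rpl9, of the large subunit body, had 761 and 732 CPM against 1317 and 1314 CPM (0.82 ± 0.07). The smallest rises called in this subunit were those of Rpl10, which joins late in subunit maturation (727 and 729 CPM against 813 and 836 CPM, 0.18 ± 0.05), Rpl28 (0.18 ± 0.06) and Rpl14 (0.19 ± 0.06). In all 5 genes both treated libraries lay above both controls. The calls of Rpl14 and Rpl28 were lost without MAflox EtOH replicate 2 (edgeR adjusted p = 0.0641 and 0.0616), and that of Rpl28 also without MAflox 4-OHT replicate 1 (0.0925). With library totals the calls of Rpl10, Rpl14 and Rpl28 were lost (log2 0.0069, 0.012 and 0.012).

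Of the small subunit, Rps14, the 5q- gene, had 809 and 709 CPM in MAflox EtOH and 1393 and 1338 CPM in 4-OHT (log2 0.85 ± 0.07). Rps18 had 1029 and 1008 CPM against 1781 and 1749 CPM (0.79 ± 0.06), and Rps27a, which is made as a fusion with ubiquitin, rose by 0.72 ± 0.06. Rps19, the gene most often mutated in Diamond-Blackfan anaemia, had 711 and 686 CPM against 1139 and 1159 CPM (0.72 ± 0.06). The least of the called rises were those of Rps20, whose annotated coding transcript of 3706 bases is the longest here (0.15 ± 0.06), Rps28 (0.22 ± 0.06) and Rps29 (0.29 ± 0.07). The call of Rps20 was lost without MAflox EtOH replicate 2 and without either 4-OHT library (edgeR adjusted p = 0.228, 0.105 and 0.0514), and that of Rps28 without MAflox EtOH replicate 2 or 4-OHT replicate 1 (0.068 and 0.0545). With library totals the calls of Rps20, Rps28 and Rps29 were lost (log2 −0.019, 0.043 and 0.11). The 10 genes that did not pass were Rpl4, Rpl21, Rpl29, Rpl34, Rplp1, Rps2, Rps4x, Rps26, Rps27 and Rps27l, with log2 values from −0.19 to 0.14. Rplp1 had 1716 and 1629 CPM in EtOH against 1716 and 1610 CPM in 4-OHT. It was called lower with library totals (log2 −0.18, edgeR adjusted p = 0.00903) and with the length and GC trend described next removed (−0.35, 3.33e-06).

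In MAflox cells the median change of tested genes followed their transcript length. Lengths from GENCODE M21 were known for 96.2% of tested genes and for all 78, which run from 271 to 3706 bases with a median of 740, and 72 of them stood in the shortest of 5 equal length classes of tested genes (56 to 1440 bases). In MAflox cells the median log2 change over the genes of that class that encode no cytosolic ribosomal protein was 0.29, and it was −0.36 in the longest class. The 72 ribosomal protein genes there had a median of 0.40. When a trend of the counts on length and GC content was removed in each library, 25 of the 78 were higher and 20 lower in MAflox 4-OHT, with a median of 0.0070. The median over all genes tested in that fit was −0.00985. Before the removal 33.1% of all tested genes rose and 32.1% fell, and the shares after it are not given here. With the trend removed Rps4x, Rps27l, Rpl21, Rps2, Rpl10 and Rpl14 were called lower, while Rpl17, Rps14, Rps18 and Rps19 were still called higher. The trend in MATIP cells ran the other way and was flatter, from −0.022 in the shortest to 0.099 in the longest class without the ribosomal protein genes, with these at −1.04.

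**Figure D2:**
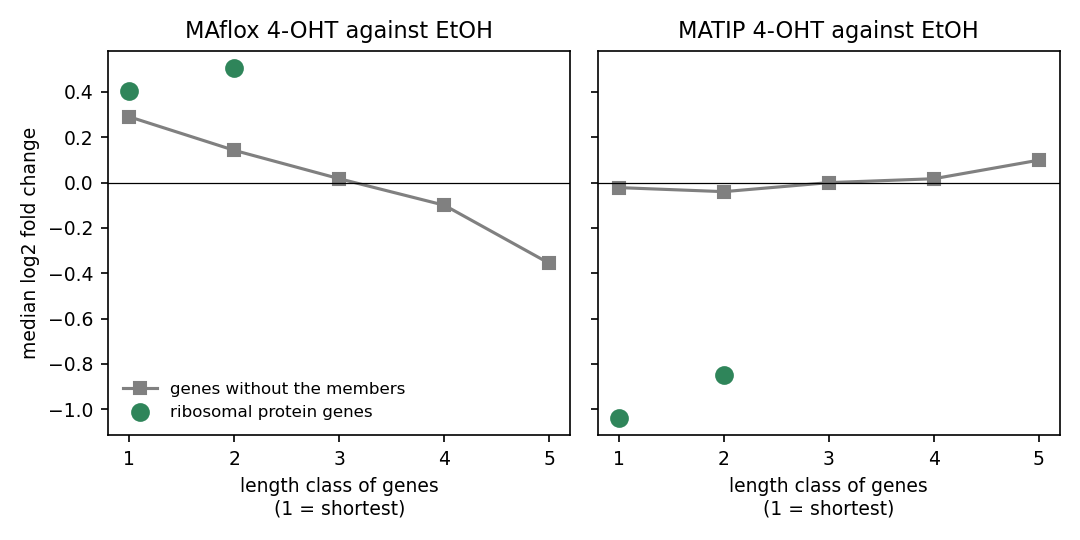
Median log2 fold change (4-OHT against EtOH) over 5 classes of tested genes by transcript length (1, shortest), for genes without the ribosomal protein genes (grey squares) and for the ribosomal protein genes where a class holds at least 5 of them (green circles, 72 in the first and 5 in the second), in MAflox (left) and MATIP cells (right). In MAflox cells the grey line runs from 0.29 to −0.36 and the first circle is at 0.40, and in MATIP cells it runs from −0.022 to 0.099 and the circle is at −1.04.

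In MATIP cells, in which 4-OHT deletes Tip60, 77 of the 78 genes fell, where 38.6% of tested genes fell and 37.5% rose. The other, Rpl3l, stood higher, but it reached 1 CPM only through its 4-OHT groups, so its level is a description without a test. The median log2 change of the 78 was −1.02 (2.03-fold lower), against 0.0039 over all tested genes. It was −1.08 for the large and −0.93 for the small subunit. In all 77 both treated libraries lay below both controls, as in 44.2% of tested genes (44.2% lay above), and 40 genes fell by more than 1 on the log2 scale. Among the 75 genes of at least 10 CPM the changes ran from −1.88 to −0.46, with standard errors of 0.054 to 0.074; the span of the changes is wider than the error of any of them. With the length and GC trend removed, 77 were again lower and 1 higher.

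Rpl13a, a large subunit protein also known as a translational repressor in activated monocytes, had the largest fall. It had 1373 and 1285 CPM in MATIP EtOH and 333 and 388 CPM in 4-OHT, a log2 change of −1.88 ± 0.07 (edgeR adjusted p = 4.72e-15), while in MAflox cells it had 1473 and 1405 CPM against 2245 and 2258 CPM (0.65 ± 0.07). The gene lies on chromosome 7 at 45125558 to 45128761 (mm10), hosts 4 small nucleolar RNAs in its introns, and shares 695 exon bases with same-strand annotated genes. Rpl21 had 300 and 267 CPM in EtOH against 84.3 and 98.5 CPM (−1.63 ± 0.07), and Rpl34 had 3.26 and 2.65 CPM against 0.782 and 0.888 CPM (−1.81 ± 0.30), at a low level. Rpl3, which reaches to the peptidyl transferase centre, had 1604 and 1550 CPM against 523 and 554 CPM (−1.55 ± 0.05).

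Rps18 led the small subunit genes of high level, with 929 and 851 CPM in MATIP EtOH and 289 and 332 CPM in 4-OHT (log2 −1.52 ± 0.07). It lies on chromosome 17 at 33951999 to 33956001 and shares 156 exon bases with Vps52 on the opposite strand. Rps27 went from 2.20 and 1.96 CPM to 0.759 and 0.454 CPM (−1.79 ± 0.33). Rps6, the substrate of S6 kinase downstream of mTOR, went from 1141 and 1108 CPM to 449 and 483 CPM (−1.27 ± 0.06). Rpsa, known also as the laminin receptor, went from 2097 and 2011 CPM to 1089 and 1195 CPM (−0.85 ± 0.06).

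The 3 stalk genes had small falls. Rplp0 had 2822 and 2691 CPM in MATIP EtOH and 1908 and 2056 CPM in 4-OHT, a log2 change of −0.48 ± 0.05 (edgeR adjusted p = 1.58e-07), at chromosome 5, 115559467 to 115563727. Rplp1 had 1571 and 1459 CPM against 1026 and 1124 CPM (−0.49 ± 0.06), and Rplp2 had 636 and 608 CPM against 408 and 476 CPM (−0.49 ± 0.07). In the small subunit the falls of Rps29 at the head (604 and 572 CPM against 395 and 461 CPM, −0.46 ± 0.07), Rps12 (−0.53 ± 0.06) and Rps2 at the mRNA entry channel (1602 and 1444 CPM against 1001 and 1069 CPM, −0.56 ± 0.06) were the smallest. In each of these 6 genes the treated libraries still lay below the controls.

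**Figure D3:**
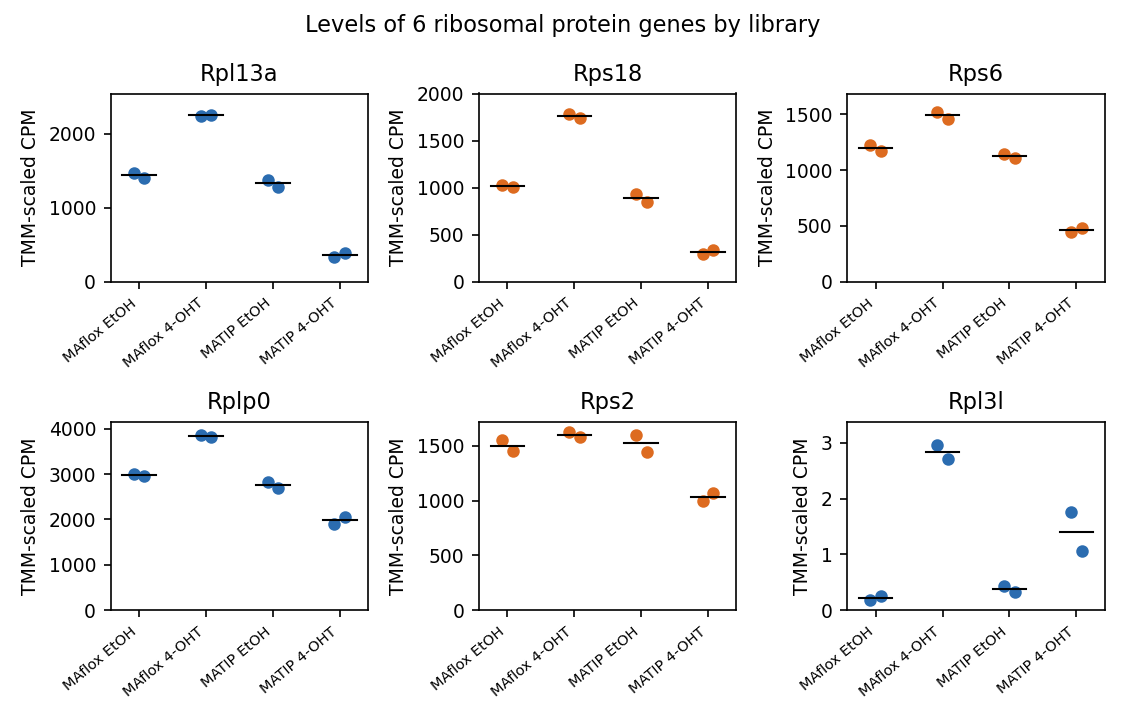
TMM-scaled CPM of 6 ribosomal protein genes in each library (points, 2 in each group; black lines are group means; blue, large subunit; orange, small subunit; each panel has its own linear axis from 0). Rpl13a and Rps18 stand at 333 and 388 CPM and at 289 and 332 CPM in MATIP 4-OHT, below every other library, Rplp0 and Rps2 fall less, and Rpl3l stands higher with 4-OHT in both lines.

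Lists by role, which were chosen with results of these data known, are given by their counts and medians. They are parts of the 78 genes, of which 68 rose in MAflox and 77 fell in MATIP, and their counts lie near those rates. Of all tested genes 33.1% rose in MAflox and 38.6% fell in MATIP. Diamond-Blackfan anaemia genes rose in 14 of 16 in MAflox (median 0.41) and fell in 16 of 16 in MATIP (median −1.05). The 7 genes linked to 5q- syndrome and leukaemia, which include Rps14, Rpl5, Rpl11, Rpl10 and Rpl22, rose in 7 of 7 (median 0.45) and fell in 7 of 7 (median −1.09). Of 7 genes of the stalk and the particle of the 5S ribosomal RNA, 6 rose in MAflox (median 0.37) and 7 fell in MATIP (median −0.93). Of 15 genes of the small subunit head 14 rose (median 0.56) and 15 fell (median −0.88), and of 10 genes around the exit tunnel 9 rose (median 0.44) and 10 fell (median −1.11). Rpl5 and Rpl11, which bind the 5S ribosomal RNA and can hold Mdm2 when ribosome assembly fails, rose by 0.50 ± 0.06 and 0.39 ± 0.07 in MAflox and fell by 1.09 ± 0.06 and 1.05 ± 0.07 on the log2 scale in MATIP. Rpl22, best known for its role in T-cell development, had 423 and 385 CPM in MATIP EtOH against 147 and 164 CPM in 4-OHT (−1.37 ± 0.06).

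The responses of the lines differed in all 78 genes, each lower in MATIP than in MAflox cells by the interaction term of the edgeR fit, where 33.6% of tested genes differed in that direction and 28.3% in the other. The median difference was −1.47 on the log2 scale, with −1.48 in the large and −1.46 in the small subunit. Rpl13a differed by −2.53 ± 0.09 (edgeR adjusted p = 1.12e-13), Rps18 by −2.31 ± 0.09, Rpl17 by −2.02 ± 0.08, Rps27a by −2.01 ± 0.09, Rps14 by −1.95 ± 0.10 and Rpl27a by −1.83 ± 0.09. The least differences were those of Rplp1 (−0.49 ± 0.09, edgeR adjusted p = 6.78e-05), Rps2 (−0.65 ± 0.09), Rps29 (−0.74 ± 0.09), Rps20 (−0.75 ± 0.08), Rplp0 (−0.84 ± 0.08) and Rplp2 (−0.88 ± 0.09). With the length and GC trend removed the median difference was −1.03 and 77 of the 78 genes were lower, the exception being Rplp1 (−0.045, edgeR adjusted p = 0.574). With a replicate block added to that fit the calls of Rpl34 (−1.06, edgeR adjusted p = 0.0535) and Rps29 (−0.19, 0.0539) were lost too. Rpl3l stood at −1.62 in it and was not called.

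The order of the changes was compared between the lines. Over the 75 genes of at least 10 CPM, the log2 changes in MAflox and in MATIP cells, which share no libraries, had Pearson's r = 0.098 and Spearman's rho = 0.16, a description across genes that share libraries within each line and are not independent replicates. Rpl17, Rps14 and Rpl9 rose most in MAflox; in MATIP the falls of Rpl17 and Rps14 (log2 −1.11 and −1.10) lay between the median and the lower quartile, and that of Rpl9 (−0.78) was smaller than the upper quartile of all 78 genes, −0.79. Rpl13a and Rps18 were high in MAflox (0.65 and 0.79) and low in MATIP (−1.88 and −1.52). Rpl21 and Rpl3 changed little or not in MAflox (0.06 and 0.21) and were among the lowest in MATIP (−1.63 and −1.55).

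**Figure D4:**
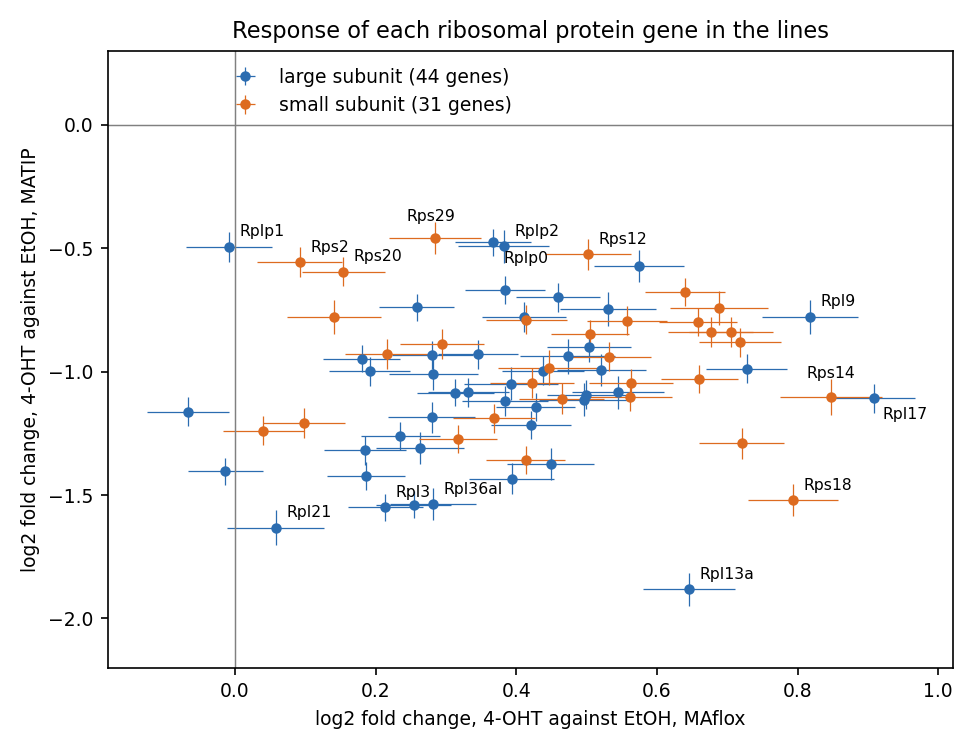
Log2 fold change (4-OHT against EtOH) of 75 ribosomal protein genes of at least 10 CPM in MAflox (horizontal) and MATIP cells (vertical), each with its standard error as bars; blue, 44 large subunit genes; orange, 31 small subunit genes. All points lie below 0 on the vertical axis, from −1.88 (Rpl13a) to −0.46 (Rps29), and most lie above 0 on the horizontal axis, up to 0.91 (Rpl17).

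Features that the choice of genes did not use were compared by medians. The 29 genes that host small nucleolar RNAs in introns had median log2 changes of 0.38 in MAflox and −1.03 in MATIP, and the other 46 had 0.43 and −0.997. The 30 genes with a run of at least 8 C or T near a RefSeq start had medians of 0.42 and −1.07, and 26 without one had 0.43 and −0.94. Rpl13a, Rps18, Rpl27a and Rpl14, whose runs are printed above, fell by 1.88, 1.52, 1.43 and 1.42 on the log2 scale in MATIP, but Rplp2, which has a run too, fell by 0.49, and Rpl36al, which has none of that length, fell by 1.54. With CCGGAAG in the window 23 genes had medians of 0.41 and −0.90, and without it 33 had 0.44 and −0.996. Within these genes the change followed length only weakly (Spearman's rho −0.21 in MAflox and −0.18 in MATIP over 75 genes). These medians are descriptions without a test.

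Rpl3l, the striated muscle form of Rpl3, had 8 and 13 counts in MAflox EtOH and 140 and 118 counts in 4-OHT, and 20 and 19 counts in MATIP EtOH and 74 and 54 counts in 4-OHT. Its group means were 0.214 and 2.84 CPM in MAflox and 0.377 and 1.41 CPM in MATIP, so it reached a mean of 1 CPM only through the 4-OHT groups, and its higher level there is given as a description without a test. Its log2 changes were 3.70 ± 0.44 and 1.90 ± 0.42, while its partner Rpl3 changed by 0.21 ± 0.05 and −1.55 ± 0.05. Without it 67 of 77 genes rose in MAflox and 77 of 77 fell in MATIP, and the responses of 77 of 77 were lower in MATIP. Its level stayed low throughout, at 2.06 CPM per kilobase in MAflox 4-OHT. The difference between its responses, −1.79 ± 0.63, is likewise a description without a test. It was −1.62 without MAflox EtOH replicate 1, −1.58 without MATIP EtOH replicate 1 and −1.45 without MATIP 4-OHT replicate 2.

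Rpl36al, a second gene for the protein of Rpl36a, had 254 and 236 CPM in MATIP EtOH against 80.1 and 88.6 CPM in 4-OHT (log2 −1.54 ± 0.06). Rpl36a itself had 349 and 305 CPM against 160 and 181 CPM (−0.94 ± 0.07), and in MAflox cells it rose by 0.47 ± 0.07 and Rpl36al by 0.28 ± 0.06, a call lost with library totals (log2 0.11). Rps27l, a p53-responsive relative of Rps27, had 169 and 150 CPM in MATIP EtOH against 89.8 and 96.1 CPM (−0.78 ± 0.07). Rpl39 had 371 and 341 CPM against 197 and 227 CPM (−0.75 ± 0.07), and its testis form Rpl39l had 40, 2, 6 and 4 counts in the 4 MATIP libraries (EtOH replicates 1 and 2, then 4-OHT replicates 1 and 2) and 0 in all MAflox libraries. Rpl10, partner of Rpl10l, went from 679 and 655 CPM to 334 and 357 CPM (−0.95 ± 0.06), and Rps4x, the X-linked partner of Rps4l, from 1457 and 1412 CPM to 588 and 654 CPM (−1.21 ± 0.06). Rpl10l and Rps4l had no more than 2 counts in any library.

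Several ribosomal proteins that every cell makes had almost no counts. Rpl34 and Rps27 had 33 to 158 and 23 to 117 counts per library, Rpl30 16 to 69 and Rpl26 0 to 2. Each has near-identical copies in the genome (at least 95% identity over at least 90% of the coding sequence). There are 5 for Rpl34, 4 for Rps27, 12 for Rpl30 and 6 for Rpl26. Of the 78 genes 73 have such copies, among them Rps2 with 24 and Rpl21 with 56. For each of the genes of low count 1 copy was itself counted under its own symbol (Rpl34-ps1, Rps27rt, Gm12191 and Gm15772). Rpl21 and Rpl14 have such a counted copy too, and Rps2 has none. How reads that fit several places were counted is not given in the sources used here, so levels of genes with such copies are uncertain, and the part of it in these low counts was not tested. The strand setting of the counting is also not given, so reads of overlapping genes such as Rps18 and Vps52 cannot be told apart.

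The lines were also compared without 4-OHT. In EtOH 34 of the 78 genes were lower in MATIP than in MAflox cells and 0 higher, where 11.7% of tested genes were lower and 20.3% higher, with a median log2 difference of −0.14; at an unadjusted p under 0.05, and with DESeq2, also 0 were higher. Both MATIP libraries lay below both MAflox libraries in 64 (28.4% of tested genes) and above them in 1 (35.8%), Rpl3l. Rps27l had 169 and 150 CPM in MATIP EtOH against 210 and 189 CPM in MAflox EtOH (−0.32 ± 0.07), and Rpl17 had 572 and 529 CPM against 662 and 660 CPM (−0.26 ± 0.06). Rps2 (0.02 ± 0.06) and Rpsa (−0.08 ± 0.06) did not pass. The count moved with the fit, to 17 with the length and GC trend removed and 57 when only the EtOH libraries were fitted. It was also lower without MAflox EtOH replicate 1 or MATIP EtOH replicate 2. Leaving out each library in turn gave median log2 differences of −0.20 to −0.10. The 11.7% holds for the main fit only, and the shares of all tested genes called lower in the other fits are not given here.

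Some ribosomal proteins have names outside the rule. Fau, whose product carries the small subunit protein eS30, had 438 and 432 CPM in MAflox EtOH against 875 and 875 CPM in 4-OHT (log2 1.01 ± 0.06), and 403 and 384 CPM in MATIP EtOH against 167 and 190 CPM (−1.14 ± 0.06). Gnb2l1, which encodes the scaffold Rack1, changed by 0.44 ± 0.05 and −0.94 ± 0.05. A list of 7 tested genes with other names, not all of them proteins of the ribosome, had 3 up and 2 down in MAflox. In MATIP 7 fell (median −1.02). Among the 2 that fell in MAflox was Rsl1d1, a nucleolar protein, which fell by 0.48 ± 0.06 there and by 1.85 ± 0.06 in MATIP on the log2 scale.

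Genes that build ribosomes fell for the most part in both lines. For these lists and those that follow, the shares of all tested genes were 33.1% up and 32.1% down in MAflox. In MATIP they were 37.5% up and 38.6% down. Of 38 ribosomal protein chaperones and assembly factors 3 rose and 31 fell in MAflox (median −0.45), and 1 rose and 36 fell in MATIP (median −1.30). Gnl3, the nucleolar GTPase nucleostemin, went from 209 ± 13.9 to 33.6 ± 0.410 CPM in MATIP (mean ± SD, n = 2). Of 40 genes of RNA polymerase I, rRNA processing and small nucleolar RNPs 2 rose and 35 fell in MAflox (median −0.68), and 39 of 40 fell in MATIP (median −1.47). Nop56, a core protein of box C/D particles, fell by 0.49 ± 0.06 in MAflox and by 2.15 ± 0.06 in MATIP on the log2 scale, and Utp20, of the small subunit processome, by 2.29 ± 0.08 and 0.88 ± 0.07. The part of the length trend in the MAflox values of these lists was not tested.

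Of 33 translation factors and other genes of the TOP class 15 rose and 16 fell in MAflox (median −0.11), and 2 rose and 30 fell in MATIP (median −1.02). Vim, the filament protein vimentin, had the highest change, at 736 ± 18.5 CPM in MATIP EtOH against 3411 ± 71.2 CPM in 4-OHT, and Eif3a fell by 1.37 ± 0.06 and 1.05 ± 0.06 on the log2 scale. Of 20 genes of mTOR signalling and TOP control 4 rose and 15 fell in MAflox and 6 rose and 11 fell in MATIP. Among them Larp1 fell by 1.54 ± 0.07 and 1.64 ± 0.07, with a difference of −0.10 ± 0.09 that did not pass, and Eif4g1, the cap-complex scaffold, by 1.33 ± 0.06 and 1.10 ± 0.06. Of 19 transcription factors linked to ribosomal protein promoters 2 rose and 12 fell in MAflox and 4 rose and 15 fell in MATIP. Myc went from 337 ± 2.80 to 212 ± 21.6 CPM in MAflox (log2 −0.67 ± 0.06) and from 360 ± 15.8 to 445 ± 3.53 CPM in MATIP (0.31 ± 0.06), and its partner Max fell by 0.25 ± 0.06 and 1.24 ± 0.06 on the log2 scale.

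Of 20 ribosome quality control genes 3 rose and 13 fell in MAflox, and 2 rose and 14 fell in MATIP, with Gcn1l1, a sensor of collided ribosomes, down by 1.78 ± 0.08 and 0.60 ± 0.08 on the log2 scale, and Usp10, a ribosome deubiquitinase, by 1.19 ± 0.06 and 1.43 ± 0.06. Of 15 genes of ribosomal stress and p53, which include Rpl22 and Rps27l, 8 rose and 4 fell in MAflox, and 9 rose and 4 fell in MATIP. Trp53inp1, a p53 target, went from 9.38 ± 0.802 to 82.2 ± 4.43 CPM in MAflox and from 7.41 ± 0.131 to 101 ± 8.50 CPM in MATIP. The 77 mitochondrial ribosomal protein genes, whose products make a separate ribosome, had 17 up and 27 down in MAflox (median −0.085), and 3 up and 66 down in MATIP (median −0.65). Their responses differed in 58 genes, 1 higher and 57 lower in MATIP, with a median of −0.58 against −1.47 for the cytosolic genes.

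**Figure D5:**
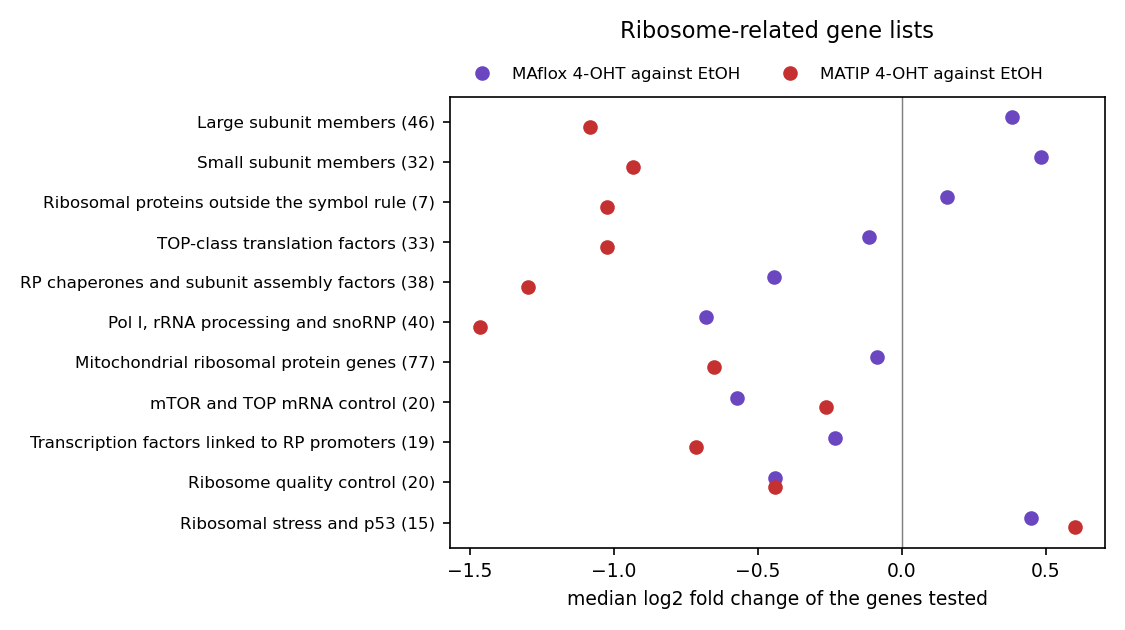
Median log2 fold change (4-OHT against EtOH) of the tested genes of 11 ribosome-related lists in MAflox (purple) and MATIP cells (red), with the number of genes tested in parentheses. Both subunits lie right of 0 in MAflox (0.38 and 0.48) and near −1 in MATIP, whereas assembly factors and RNA polymerase I and rRNA processing genes lie left of 0 in both lines.

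Among 8724 genes that are not ribosomal protein genes, those whose log2 levels over the 8 libraries followed the mean of these genes most closely were Ubxn1 (Pearson's r = 0.999), Traf3ip3 (0.999), Elof1 (0.997), Ndufv2 (0.997) and Psmb3 (0.997), a description over libraries that fall into 4 groups. Of the 78, Rpl3l (r = 0.00068) and Rpl34 (r = 0.83) followed the mean least and Rpl29 (r = 0.92) came next. In the authors' deposited table, 69 of the 78 were higher and 0 lower in MAflox 4-OHT (median log2 0.42), and 1 was higher and 77 lower in MATIP 4-OHT (median −0.98), at an adjusted p under 0.05.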

How the data were processed

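Gene counts came from 8 libraries, 2 in each of 4 groups taken from the sample titles. The count table deposited by the authors gives raw whole-number counts of reads by gene symbol. The submitters' processing notes name Trimmomatic 0.38.0, HISAT2 2.1.0, featureCounts 1.6.4, DESeq2 and build mm10. The strand setting, the treatment of multi-mapping reads and the gene annotation used are not given in the sources. The authors also deposited a table of their log2 fold changes with adjusted p-values, per the file headers. The genes and lists were chosen with earlier results of these data known, so no pattern in them is independent evidence.

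Counts were tested with edgeR 4.0.16 (R 4.3.3, limma 3.58.1) on 13722 genes passing filterByExpr (minimum count 10, minimum total 15), with TMM scaling, 1 coefficient per group over all 8 libraries, the quasi-likelihood test and Benjamini-Hochberg adjustment within each contrast, called at 0.05. Dispersion was estimated over the 4 groups together, with 4 residual and 14.3 prior degrees of freedom and a common biological coefficient of variation of 5.98%. The standard error is the log2 change over the square root of F. CPM in the text are TMM-scaled, except in the choice of genes and the marker sums, which use library totals. No 2 replicates were near-duplicates (chi-square per degree of freedom 7.33 to 13.6). Alternatives were DESeq2 1.42.0, other scalings, no filter, a length and GC offset (with or without a replicate block), fewer groups and each library left out. Lengths, positions and copies come from GENCODE M21 (copies by blastn 2.17.0, at least 95% identity over 90% of the coding sequence). The length used is that of the shortest principal coding transcript. Start-site windows come from RefSeq. The script was tested on simulated data. Genes were named by a rule: the 3 highest and 3 lowest called in each subunit and contrast, the paralogs and their partners, the stalk genes, Rpl5, Rpl11, Rps19, Rps14, Rpl22, Rpsa, Rps6, the 3 of highest level per kilobase in each subunit, the genes next to the 1 CPM limit, and in each other list the called gene of smallest p; other names were chosen after their values were seen. A gene that the rule names is not reported here.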

Additional observations from a re-analysis of the deposited data

Results flagged for a closer look

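The responses to 4-OHT differed between MATIP and MAflox cells in 78 of the 78 ribosomal protein genes, as tested by the interaction term of the edgeR fit. All were lower in MATIP, where 33.6% of all tested genes were lower and 28.3% higher. Without Rpl3l, which passed the 1 CPM level only through its 4-OHT groups, the count was 77 of 77. The differences of the named genes, as MATIP minus MAflox on the log2 scale, follow by role. Among proteins of the stalk they were −0.84 for Rplp0, −0.49 for Rplp1 and −0.88 for Rplp2. Rpl5 and Rpl11, which carry the 5S ribosomal RNA, had −1.59 and −1.44.

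Of the other large subunit genes, Rpl3 had −1.76, Rpl9 −1.60, Rpl10 −1.13, Rpl13a −2.53, Rpl14 −1.61, Rpl17 −2.02, Rpl21 −1.69, Rpl22 −1.82, Rpl27a −1.83, Rpl28 −1.50, Rpl34 −1.62, Rpl36a −1.41, Rpl39 −1.28 and Rpl41 −1.51. The second genes Rpl3l and Rpl36al had −1.79 and −1.82. Rpl3l stood higher with 4-OHT in both lines, so its difference is one between 2 higher levels.

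Of the small subunit genes, Rps2 had −0.65, Rps4x −1.31, Rps6 −1.59, Rps12 −1.03, Rps14 −1.95, Rps15 −1.66, Rps18 −2.31, Rps19 −1.60, Rps20 −0.75, Rps27 −1.90, Rps27a −2.01, Rps27l −0.92, Rps28 −1.14, Rps29 −0.74 and Rpsa −1.35.

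Counts also stood in rows named as pseudogenes or retrocopies of ribosomal protein genes, which the comparisons above did not use. Rpl14-ps1 had a mean of 246 CPM over the 8 libraries, Rpl37rt 69.8 CPM, Rps15a-ps6 3.68 CPM, Rps19-ps3 1.40 CPM, Rpl31-ps12 1.26 CPM and Rps15a-ps4 1.22 CPM. In MATIP cells Rpl14-ps1 changed by −1.44 ± 0.06 on the log2 scale, beside −1.42 ± 0.06 for Rpl14 itself.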

How the results depend on the processing

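With 2 libraries a group, a difference of shares cannot pass an exact test, and levels of genes with near-identical copies depend on the counting. In MATIP cells the counts (77 lower, 1 higher) and the direction of every named gene were the same under every alternative run. DESeq2 and RLE size factors changed the call of none of the named genes in any of the 3 contrasts with 4-OHT. In MAflox cells the counts and the median moved with the scaling and with removal of the length and GC trend. That trend was fitted to these same libraries, so a response to 4-OHT that follows length would be removed with it. With library totals only, 4 genes were lower and the median was 0.24 (−1.15 in MATIP), and the baseline count was 53. With the length and GC offset 25 genes were higher and 20 lower in MAflox (median 0.0070, large subunit −0.014), the median difference was −1.03 and the baseline count 17. Fitted without the ribosomal protein genes, an alternative chosen after seeing the data, it gave 25 and 20 (median 0.0013, large subunit −0.018), −1.06 and 18. With only the EtOH groups the baseline count was 57. Shares of all tested genes called under the alternatives are not given here, so these counts cannot be set beside them.

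The replicate number is shared by the groups, but same-numbered libraries did not deviate together (correlations −0.039 to 0.034). With a replicate block 68 genes were higher in MAflox and 77 lower in MATIP, and with the block and the offset together 25 were higher and 16 lower (median 0.0063, large subunit −0.014), with a median difference of −1.03, 74 lower in the difference and a baseline count of 16.

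Under the offset 32 of the 78 genes changed sign in MAflox, 17 of them called lower, and 31 calls were lost. The values of the named genes among them with a call in either fit are given as the value under the offset, then fitted without the ribosomal protein genes, then with the replicate block. They were −0.25, −0.25 and −0.25 for Rpl10, −0.015, −0.019 and −0.015 for Rpl11, −0.21, −0.21 and −0.21 for Rpl14, −0.34, −0.34 and −0.34 for Rpl21, −0.00031, −0.0058 and −0.00065 for Rpl22, −0.013, −0.016 and −0.013 for Rpl27a, and −0.12, −0.12 and −0.12 for Rpl28. They were −0.10, −0.10 and −0.10 for Rpl3, −0.13, −0.14 and −0.13 for Rpl36al, −0.27, −0.27 and −0.27 for Rps2, −0.37, −0.37 and −0.37 for Rps27l, −0.042, −0.047 and −0.042 for Rps29, −0.34, −0.35 and −0.34 for Rps4x, and −0.11, −0.12 and −0.11 for Rps6. With library totals 7 changed sign, of the named genes with a call only Rps20 (−0.019), and 17 calls were lost, among them those of Rpl3 and Rpl36al (0.041 and 0.11). With only the MAflox groups Rps27l and Rps4x were called higher (0.16 and 0.11). The cause of the length trend was not tested.

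Leaving out each library in turn gave 63 to 69 higher and 0 lower in MAflox (median 0.39 to 0.43), 77 lower and 1 higher in MATIP (median −1.09 to −0.92), 77 to 78 in the difference (median −1.54 to −1.38) and 8 to 47 at baseline (median −0.20 to −0.10). Rpl14, Rpl28, Rps20 and Rps28 lost their MAflox calls without MAflox EtOH replicate 2.

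Shares with 4-OHT over EtOH were 1.12 to 1.15 (large) and 1.21 to 1.26 (small) in MAflox and 0.433 to 0.466 and 0.459 to 0.495 in MATIP when a library was left out, with ratios of large to small of 0.916 to 0.926 and 0.941 to 0.945. Without the 20 most abundant genes in the total they were 1.21 and 1.31 in MAflox and 0.512 and 0.543 in MATIP, and over the TMM library size 1.28 and 1.39, and 0.494 and 0.523. Over the 5 genes with no near-identical copy or overlapping gene they were 1.01 and 1.29 in MAflox, with the ratio changing 0.784-fold, and 0.946-fold in MATIP. Of these 5 genes 2 are of the large subunit, Rpl8 (mean 1495 CPM) and Rpl3l (1.16 CPM), and 3 of the small. The large subunit value of this set is therefore nearly that of Rpl8 alone.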
